A study of Mus musculus with 12 samples.

Results

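Met, Flrt3, Rhov, Gprc5c and Plekhg5 are 5 of the 55487 genes counted in macrophages of the injured mouse heart. They were chosen by their difference between the infarct zone (IZ) and the remote zone (RZ) in the resident, CD45.2+ macrophages of these same libraries, and all 5 passed the filter on low counts that left 18773 genes for testing. The name under which they were grouped, zone-dependent resident genes, holds for Gprc5c and Plekhg5 and not for the others: Met, Flrt3 and Rhov had higher means in recruited, CD45.1+ macrophages in both zones, and resident macrophages of the infarct zone held 22.7%, 26.6% and 23.5% of the level of their recruited counterparts. Gprc5c and Plekhg5 were resident genes in both zones, at 21.1-fold and 22-fold the recruited level in the remote zone, and had lower means in the infarct zone in both populations.

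Hosts were CD45.2; Mx1Cre Myb flox/flox mice given polyI:C, which switches on Mx1-driven Cre in interferon-responsive cells and deletes Myb, a factor that bone marrow (BM) stem cells need. They then received BM of congenic C57BL/6 CD45.1 mice, so that cells of the graft carried CD45.1 (recruited) and cells of the host CD45.2 (resident). All mice, aged 10 to 16 weeks and of both sexes, underwent ischemia-reperfusion (I/R) injury by ligation and release of the left anterior descending artery, and macrophages were sorted 2 days later from tissue distal (IZ) and proximal (RZ) to the ligation as live lin- CD11b+ F4/80+ CD64+ cells. There was no uninjured group, and every host had received polyI:C. The CD45.2 gate takes any host macrophage. Such a cell may have settled before or after birth, ahead of the transplant, or come from host BM that survived.

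Each of the 4 groups (CD45.1 RZ, CD45.1 IZ, CD45.2 RZ and CD45.2 IZ) had 3 libraries, named here by their numbers from S104 to S115, with 33253340 to 63435529 counts each. No label ties a library to an animal, so p-values measure the spread between these libraries. The sets S104 to S107, S108 to S111 and S112 to S115 each held 1 library of every group, and the 4 libraries of a set had the same sex by Xist and Ddx3y (female, male and female). Whether a set came from the same animals is not given. The set S104 to S107, with 1 library from each group, separated from the remaining 8 libraries along principal component 2 (15% of the variance). Where leaving this set out changed a call of the 5 genes, this is stated. The same holds for genes of the marker and pathway lists that were called between the CD45.2 zones. Other calls of listed genes were not checked without this set. Markers shared by macrophages (8 genes such as Adgre1, which encodes F4/80, and Cd68) summed to between 17400 and 23800 CPM (counts-per-million of the library) in the 12 libraries. Of these 8, Csf1r was called lower in CD45.2 IZ than in CD45.2 RZ (log2 fold change -0.66, adjusted p = 0.042 by edgeR). That call was made in 7 of 21 alternatives and was lost without S104 to S107. Csf1r shares exons with another gene. All 6 resident markers (Timd4, Lyve1, Folr2, Cd163, Vsig4 and Cd209f) were higher in CD45.2 in both zones, and all 5 recruited markers (Ccr2, Ly6c2, Plac8, Chil3 and Fn1) were lower.

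MET is the receptor tyrosine kinase for hepatocyte growth factor (HGF), which is secreted as a single chain and must be cleaved by serine proteases before it can activate the receptor. The pathway is known for epithelial movement, growth and survival and for liver regeneration, and HGF is known to protect heart muscle in animal models of ischemia. FLRT3 is a membrane protein with leucine-rich repeats that binds latrophilins (adhesion G protein-coupled receptors), UNC5 receptors and FGF receptors, and guides cell adhesion and axons. RHOV (Chp) is an atypical small GTPase related to RHOU and CDC42, known from neural crest and from its binding to p21-activated kinases (PAKs). PLEKHG5 is a guanine nucleotide exchange factor that activates RHOA, and its human gene is mutated in inherited motor neuron disease. GPRC5C is an orphan class C G protein-coupled receptor of a family first found through induction by retinoic acid.

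In the genome build of the files (GRCm38), Met (ENSMUSG00000009376) lies on chromosome 6 from 17463800 to 17573980 on the plus strand. Flrt3 (ENSMUSG00000051379) and Rhov (ENSMUSG00000034226) are both on chromosome 2 and on the minus strand, from 140650914 to 140671469 and from 119269201 to 119271272. Gprc5c (ENSMUSG00000051043) is on chromosome 11 from 114851152 to 114872617 and Plekhg5 (ENSMUSG00000039713) on chromosome 4 from 152072498 to 152115400, both on the plus strand. None of the 5 shared an exon with another gene, so none of their reads could be counted for a neighbour as well.

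The promoters of Met, Flrt3 and Rhov are shown because these genes moved together across the 4 groups. Each is the 250 bases before the start of the gene in RefSeq (GRCm38.p6), 5′ to 3′ on the strand of the gene: Met at chr6:17463707-17463956, Flrt3 at chr2:140671477-140671726 and Rhov at chr2:119271227-119271476. The genes as counted begin inside the windows of Met (at 17463800) and Rhov (at 119271272), so part of these windows lies within the counted gene. Positions are given from the RefSeq start. Capitals mark matches, on either strand, to 6 motifs: the hypoxia response core ACGTG, the AP-1 motif TGANTCA, the GC box GGGCGG, the E-box CACGTG, the cyclic AMP response element TGACGTCA and the TATA box TATAAA.
Met: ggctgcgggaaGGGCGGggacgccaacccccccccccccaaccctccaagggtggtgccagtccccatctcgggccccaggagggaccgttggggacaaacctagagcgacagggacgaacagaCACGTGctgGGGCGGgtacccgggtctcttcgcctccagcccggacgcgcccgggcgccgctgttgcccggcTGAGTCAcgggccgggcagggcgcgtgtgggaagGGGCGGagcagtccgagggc
Flrt3: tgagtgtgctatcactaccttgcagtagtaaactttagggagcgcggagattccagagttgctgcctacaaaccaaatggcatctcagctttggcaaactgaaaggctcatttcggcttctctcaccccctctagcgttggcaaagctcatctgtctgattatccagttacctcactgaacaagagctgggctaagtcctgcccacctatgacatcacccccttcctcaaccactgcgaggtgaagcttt
Rhov: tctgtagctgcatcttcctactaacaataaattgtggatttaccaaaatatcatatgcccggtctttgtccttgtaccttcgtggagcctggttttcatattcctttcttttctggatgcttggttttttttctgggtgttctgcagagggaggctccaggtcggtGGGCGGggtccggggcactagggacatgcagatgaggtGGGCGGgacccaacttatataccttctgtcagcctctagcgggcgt

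The promoters had little in common by these motifs. The Met window held 3 GC boxes (in 32.7% of the 32851 windows of this length), an E-box (6.02% of windows) and an AP-1 match (6.75% of windows). The AP-1 match lay 54 bases before the RefSeq start, within the gene as counted. The 2 matches to ACGTG (16.6% of windows) were both strands of the E-box. The Rhov window held 2 GC boxes and the Flrt3 window none of the 6 motifs. No window of these 3 genes held TGACGTCA (1.55% of windows) or TATAAA (12.4% of windows). G and C made up 74% of the Met window and 50% of the Flrt3 and Rhov windows, against a median of 52.4% over all windows. Plekhg5 has 3 windows in RefSeq, of which 2 overlapping ones held 5 and 4 GC boxes and the third none, and Gprc5c was not matched. A match is a stretch of letters, and no binding was measured.

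Met was lowest in resident macrophages of the remote zone and highest in recruited macrophages of the infarct zone. Its level in CD45.2 RZ was 0.549, 2.42 and 0.451 CPM in S106, S110 and S114, which were 29, 118 and 26 counts. In CD45.2 IZ it was 6.56, 17.9 and 10.3 CPM in S107, S111 and S115. All 3 infarct zone libraries therefore lay above all 3 remote zone libraries, of which S110 was the highest. Recruited macrophages had 22.7, 43.5 and 18.3 CPM in the remote zone (S104, S108 and S112) and 30.7, 71.3 and 50.6 CPM in the infarct zone (S105, S109 and S113), and these groups overlapped. The order of the means was CD45.2 RZ (1.14 ± 1.11 CPM, SD, n = 3), CD45.2 IZ (11.6 ± 5.77), CD45.1 RZ (28.2 ± 13.5) and CD45.1 IZ (50.9 ± 20.3), and only the last 2 neighbours overlapped.

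Flrt3 followed the same order with less spread between libraries. Resident macrophages had 2.27, 1.79 and 0.624 CPM (RZ, S106, S110 and S114) and 10.7, 14.8 and 11.7 CPM (IZ, S107, S111 and S115). Recruited macrophages had 35.2, 43.1 and 22.4 CPM (RZ, S104, S108 and S112) and 51.8, 48.4 and 39.4 CPM (IZ, S105, S109 and S113). The CD45.2 zones did not overlap, the CD45.1 zones did, and every CD45.2 library lay below every CD45.1 library. The means were 1.56 ± 0.846 (CD45.2 RZ), 12.4 ± 2.15 (CD45.2 IZ), 33.6 ± 10.4 (CD45.1 RZ) and 46.5 ± 6.39 CPM (CD45.1 IZ; SD, n = 3 each).

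Rhov had the same order of group means. It was at 0.757, 1.73 and 0.208 CPM in CD45.2 RZ (40, 84 and 12 counts in S106, S110 and S114) and at 5.92, 16.6 and 11.6 CPM in CD45.2 IZ. Recruited macrophages had 12.1, 43.9 and 8.72 CPM of it (RZ) and 27, 54.9 and 63.7 CPM (IZ). The recruited remote zone group rested on S108, which held 43.9 CPM against 12.1 and 8.72 in the other 2. Resident infarct zone libraries overlapped with recruited remote zone libraries here, unlike for Met and Flrt3. The means were 0.897 ± 0.768 (CD45.2 RZ), 11.4 ± 5.36 (CD45.2 IZ), 21.6 ± 19.4 (CD45.1 RZ) and 48.5 ± 19.2 CPM (CD45.1 IZ; SD, n = 3 each), and of neighbours in this order only the first 2 did not overlap.

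Gprc5c had the opposite order, highest in resident macrophages of the remote zone. CD45.2 RZ libraries held 46.2, 59.9 and 53.1 CPM and CD45.2 IZ libraries 15.2, 18.8 and 32.8 CPM, of which S115 was the highest. Recruited libraries held 1.82, 2.6 and 3.13 CPM (RZ) and 0.885, 1.29 and 1.23 CPM (IZ), on 44 to 156 counts a library. Each of the 4 groups lay apart from the others, with means of 53 ± 6.86, 22.3 ± 9.31, 2.52 ± 0.658 and 1.14 ± 0.22 CPM (SD, n = 3 each).

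Plekhg5 ran in parallel with Gprc5c. It was at 55.3, 64.8 and 75.6 CPM in CD45.2 RZ and at 21.5, 26.8 and 37.8 CPM in CD45.2 IZ. Recruited libraries held 1.94, 3.37 and 3.57 CPM (RZ) and 1.61, 1.43 and 1.89 CPM (IZ). Its 4 groups did not overlap either, although S104 (1.94 CPM, RZ) and S113 (1.89 CPM, IZ) nearly met. The means were 65.2 ± 10.1, 28.7 ± 8.34, 2.96 ± 0.891 and 1.64 ± 0.228 CPM (SD, n = 3 each).

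**Figure D1:**
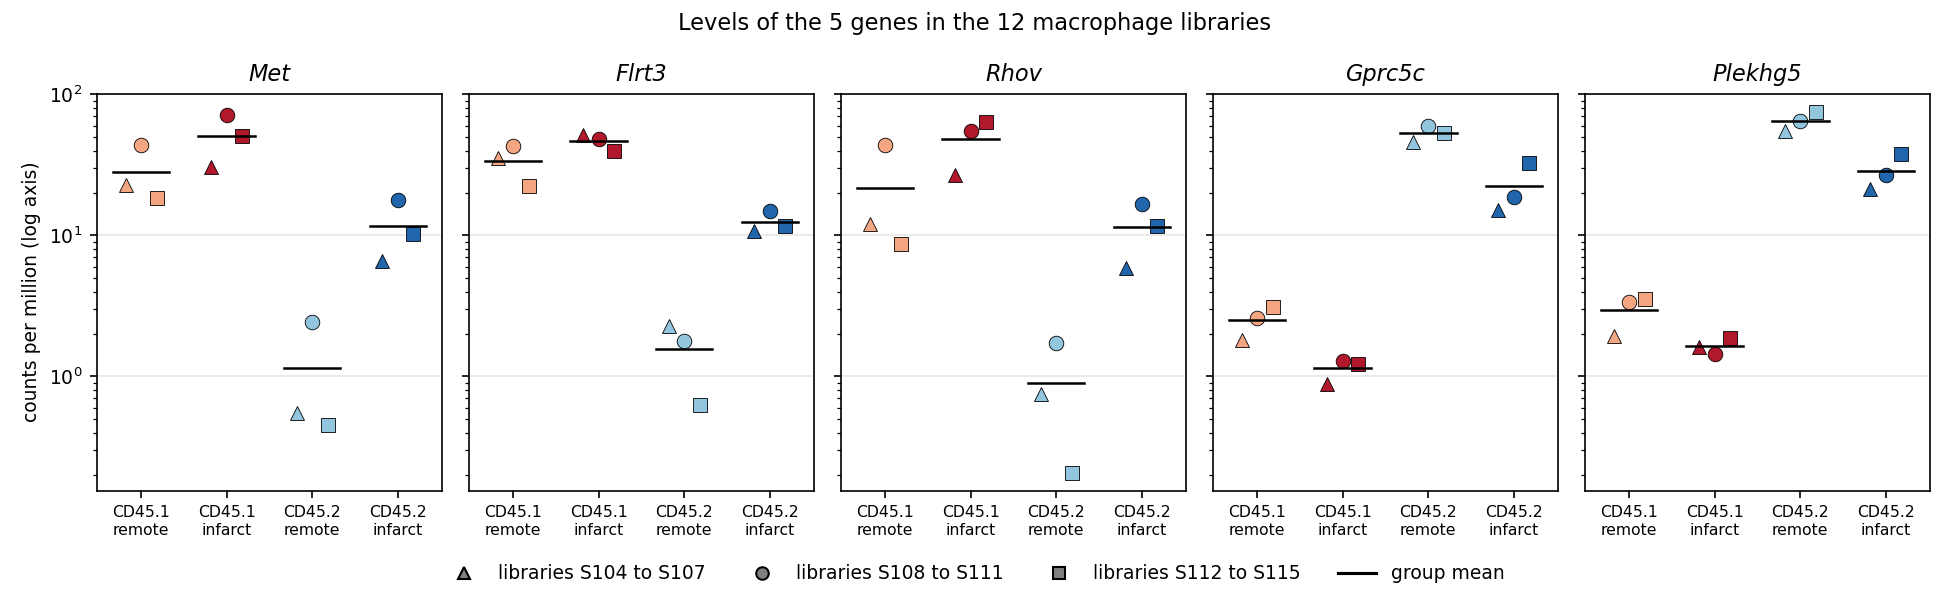
Level of each gene in the 12 libraries (points, CPM on a log axis) by population and zone, with the group mean as a line and the marker shape giving the set of library numbers. Met, Flrt3 and Rhov were lowest in CD45.2 RZ (means of 1.14, 1.56 and 0.897 CPM) and highest in CD45.1 IZ, and Gprc5c and Plekhg5 were highest in CD45.2 RZ (53 and 65.2 CPM).

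Per kilobase of exon, levels can be compared between the genes. In resident macrophages of the remote zone, Plekhg5 and Gprc5c stood at 12 and 10.1 RPKM (CPM per kilobase of exon) and Rhov, Flrt3 and Met at 0.527, 0.321 and 0.149 RPKM. In the resident infarct zone, Rhov (6.69 RPKM) had the highest mean, followed by Plekhg5 (5.29), Gprc5c (4.24), Flrt3 (2.54) and Met (1.51). In the recruited infarct zone, Rhov reached 28.5 RPKM, Flrt3 9.57 and Met 6.63, while Plekhg5 and Gprc5c were at 0.303 and 0.217 RPKM.

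The zone difference in resident macrophages is a description here, because it chose the genes. Met was 10.2-fold higher in the infarct zone (log2 fold change 3.35, SE 0.648), Rhov 12.8-fold (3.68, SE 0.786) and Flrt3 7.95-fold (2.99, SE 0.388). Gprc5c and Plekhg5 were at 42% and 44% of their remote zone mean (log2 fold changes of -1.25, SE 0.276, and -1.18, SE 0.246). By the edgeR quasi-likelihood test at an adjusted p of 0.05, 1.46% of all genes tested were called higher and 0.293% lower in this comparison, and in 19% of all genes the 3 libraries of each zone did not overlap, as was so for these 5 by their choice. The fold changes of Met and Rhov leaned on S110, the remote zone library with the most of both, and were 4.5 and 4.55 on the log2 scale without it.

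In recruited macrophages, none of the 5 genes passed the test between zones. These libraries are not in the CD45.2 zone contrast, but they enter the difference of zone effects, which is counted below as part of the choice, so this test is not independent of it. The comparison had no call in 18773 genes (0% of genes) by edgeR, with 1486 genes at an unadjusted p under 0.05, 190 calls by DESeq2 and 0 by limma-voom. Met was 1.8-fold higher in the infarct zone (log2 fold change 0.85, 95% interval -0.39 to 2.09, adjusted p = 0.8 by edgeR), Flrt3 1.39-fold (0.47, -0.28 to 1.23, adjusted p = 0.823) and Rhov 2.25-fold (1.17, -0.31 to 2.65, adjusted p = 0.751). Gprc5c had a log2 fold change of -1.15 (95% interval -1.81 to -0.48, adjusted p = 0.36 by edgeR) and Plekhg5 of -0.84 (-1.43 to -0.26, adjusted p = 0.442). The zones did not overlap for these 2 of the 5 genes, as in 15.5% of all genes tested. DESeq2 called Gprc5c (adjusted p = 0.0323), and no other alternative called any of the 5. Within each of the 3 sets of libraries, the infarct zone library held more Met, Flrt3 and Rhov and less Gprc5c and Plekhg5 than the remote zone library. The share of all genes with the same direction in all 3 sets was not computed, so this is a description only. With a term for the sets (the side of the second component and sex as covariates), the adjusted p by edgeR was 0.18 for Met, 0.394 for Flrt3, 0.197 for Rhov, 0.0558 for Gprc5c and 0.074 for Plekhg5. Without S108, the log2 fold change of Rhov was 2.22 (adjusted p = 0.289 by edgeR).

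The zone effect in CD45.2 minus that in CD45.1, counted as part of the choice, was 2.5 for Met (95% interval 0.67 to 4.34 on the log2 scale), 2.52 for Flrt3 (1.4 to 3.64) and 2.51 for Rhov (0.3 to 4.72). It was -0.11 for Gprc5c (-1.01 to 0.8) and -0.34 for Plekhg5 (-1.13 to 0.45). Because of the choice, these intervals need not have 95% coverage, and whether they hold 0 is not a test. No gene of the 18773 was called in this comparison by edgeR (0% of genes, 821 at an unadjusted p under 0.05), against 163 by DESeq2 and 25 by limma-voom. The difference for Rhov was 1.44 without S108 and 3.38 without S110, and that for Met 3.65 without S110.

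**Figure D2:**
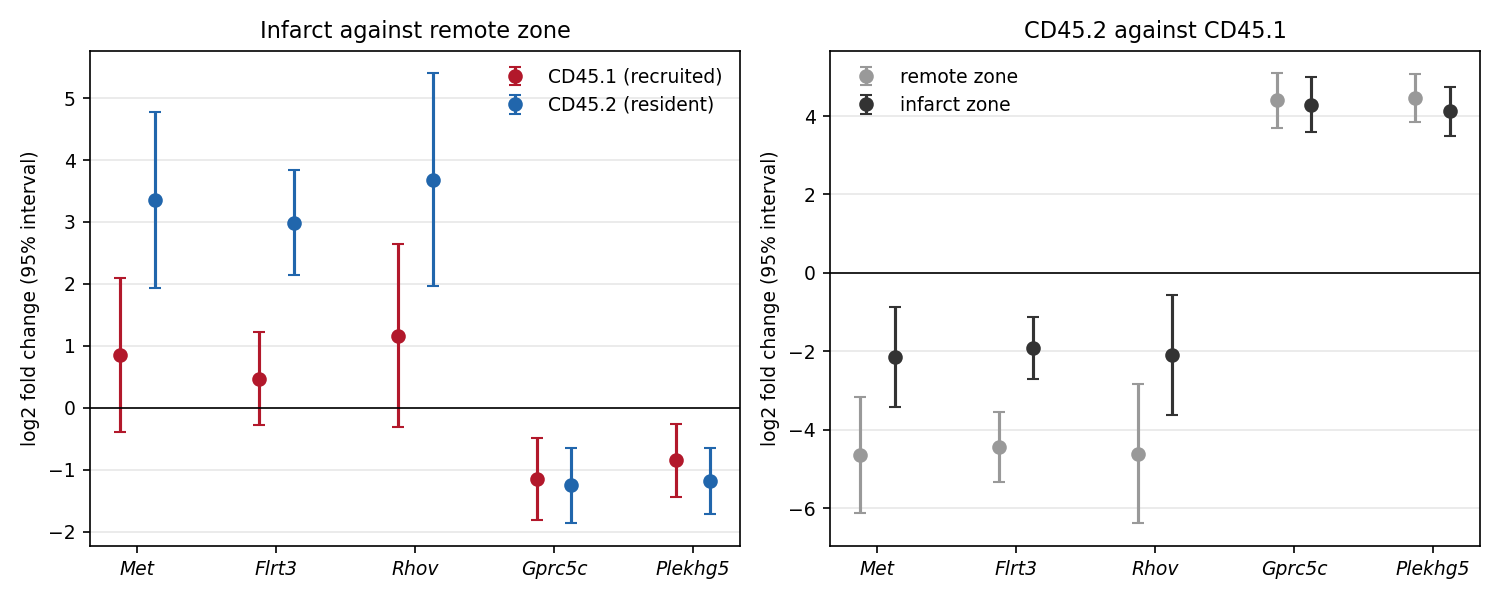
Log2 fold changes of the 5 genes with 95% intervals, between zones in each population (left) and between populations in each zone (right). The CD45.2 zone differences chose the genes, so their intervals are a description and not a test. The population differences are not independent of that choice. The zone differences of Met, Flrt3 and Rhov were 3.35, 2.99 and 3.68 in CD45.2 against 0.85, 0.47 and 1.17 in CD45.1, and the population differences of these genes were smaller in the infarct zone.

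Between populations, Met, Flrt3 and Rhov were the recruited genes and Gprc5c and Plekhg5 the resident ones. These comparisons share the CD45.2 libraries with the contrast that chose the genes. The difference of zone effects, counted as part of the choice, is also the difference between the 2 population comparisons. Their tests are therefore not independent of the choice of the genes. All 5 were called in the remote zone, 3 of them lower and 2 higher in resident macrophages, where 15.8% of genes tested were called lower and 16.2% higher. Met was 25-fold lower in resident macrophages (log2 fold change -4.64, SE 0.676, adjusted p = 0.00039 by edgeR), Flrt3 21.6-fold lower (-4.43, SE 0.408, adjusted p = 1.5e-05) and Rhov 24.4-fold lower (-4.61, SE 0.809, adjusted p = 0.00131). Gprc5c was 21.1-fold higher (4.40, SE 0.317, adjusted p = 2.73e-06 by edgeR) and Plekhg5 22-fold higher (4.46, SE 0.283, adjusted p = 1.37e-06). The 2 populations did not overlap for any of the 5 genes in the remote zone, as for 42.1% of all genes. Without S110 the log2 fold changes were -5.82 for Met and -5.5 for Rhov, and without S108 that of Rhov was -3.56.

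In the infarct zone, Gprc5c and Plekhg5 differed between populations by like amounts as in the remote zone, and the fitted differences of the other 3 genes were smaller by the difference of zone effects given above. Gprc5c was 19.6-fold (log2 fold change 4.29, SE 0.323, adjusted p = 7.63e-06 by edgeR) and Plekhg5 17.4-fold (4.12, SE 0.284, adjusted p = 4.07e-06) higher in CD45.2, among 12% of genes called higher. Flrt3 was 3.76-fold lower (-1.91, SE 0.359, adjusted p = 0.00339 by edgeR) and Met 4.41-fold lower (-2.14, SE 0.587, adjusted p = 0.0253), among 7.56% of genes called lower. Rhov, 4.27-fold lower by its fitted value, was not called (-2.09, SE 0.697, adjusted p = 0.0557 by edgeR). It was called in 10 of 22 alternatives, among them DESeq2 (adjusted p = 0.0396) and the fit with a term for the sets of libraries (0.00397), and its adjusted p ranged from 0.00397 to 0.143. The call for Met was lost without S107, S109, S113 or S115, with adjusted p up to 0.0915 by edgeR. The libraries of the populations did not overlap for any of the 5 genes here either, as for 41.3% of all genes.

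Recruited and resident markers moved in the resident infarct zone libraries alongside these genes. Recruited markers summed to 320 to 557 CPM in CD45.2 RZ, 1830 to 2920 in CD45.2 IZ and 7200 to 11800 in CD45.1, and 4 of the 5 rose between zones in CD45.2: Ly6c2 (log2 fold change 2.90), Plac8 (2.80), Chil3 (2.18) and Fn1 (2.86). The Plac8 call by edgeR was lost without S105, S108, S110, S111, S114 or S115 and that of Ly6c2 without S110. Both were lost with limma-voom, and all 4 calls were lost when only the 6 CD45.2 libraries were fitted. Their summed mean in CD45.2 IZ was 23.7% of that in CD45.1 IZ, beside 22.7% for Met, 26.6% for Flrt3 and 23.5% for Rhov. In the remote zone the same share was 5.43% for the marker sum, 4.05% for Met, 4.65% for Flrt3 and 4.16% for Rhov. Fn1, which shares exons with another gene, made up most of these sums, at 1810 CPM in CD45.2 IZ and 6640 CPM in CD45.1 IZ. Gene by gene, the marker shares ran from 14% (Chil3) to 27.2% (Fn1) in CD45.2 IZ. In CD45.2 RZ they ran from 2.74% (Ly6c2) to 11.9% (Ccr2). Ccr2 was the marker not called between the resident zones (log2 fold change 1.03, adjusted p = 0.129 by edgeR). Of all genes tested, 1.46% were called higher there. In bulk samples, a change in the share of cells of a type and a change of RNA per cell cannot be told apart.

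The 3 resident infarct zone libraries did not stand in the same order for every gene. S111 held the most Met, Flrt3 and Rhov (35.1%, 31.8% and 34.3% of the CD45.1 IZ mean) and S107 the least (12.9%, 22.9% and 12.2%). Among recruited markers, S107 was likewise the lowest for Ccr2, Ly6c2, Plac8 and Chil3. The highest was S111 for Ccr2 (30.6%) and Fn1 (33.4%) and S115 for Ly6c2, Plac8 and Chil3 (25.7%, 33.2% and 20%). The part of recruited cells in the zone difference of Met, Flrt3 and Rhov was not tested.

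Resident markers ran alongside Gprc5c and Plekhg5. They summed to 3910 to 4330 CPM in CD45.2 RZ and 1630 to 2410 in CD45.2 IZ, a mean of 47.5% of the remote zone, beside 42% for Gprc5c and 44% for Plekhg5. None of the 6 was called between zones (median log2 fold change -1.18 against 0.02 over all genes). S115 held the most of Gprc5c and Plekhg5 among the resident infarct zone libraries (61.8% and 58% of the remote zone mean), and of Timd4 (54.3%), Lyve1 (61.5%), Folr2 (68.4%) and Cd163 (57.2%), but not of Vsig4 or Cd209f, which were highest in S107 (45.7% and 78.6%). In CD45.1 the resident markers summed to 235 to 355 CPM in the remote zone and 90.6 to 139 in the infarct zone, the population in which Gprc5c and Plekhg5 had fitted values 2.21-fold and 1.8-fold lower in the infarct zone. The part of resident cell numbers in these differences was not tested.

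**Figure D3:**
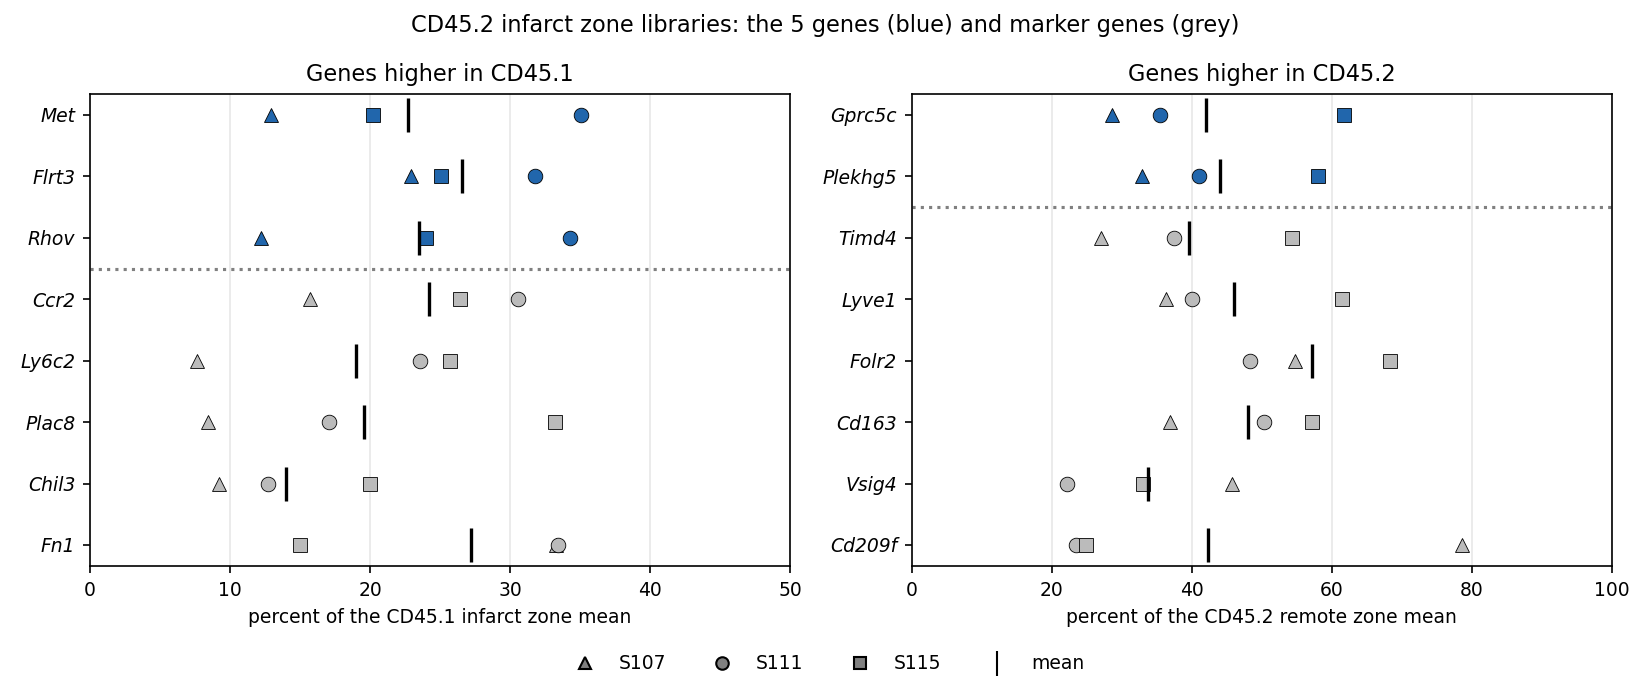
Level in each CD45.2 infarct zone library (points) and their mean (bar) for the 5 genes (blue) and markers (grey), as a percentage of the CD45.1 infarct zone mean (left) or of the CD45.2 remote zone mean (right). Met, Flrt3 and Rhov (22.7%, 26.6% and 23.5%) lay within the 14% to 27.2% of the 5 recruited markers, and Gprc5c and Plekhg5 (42% and 44%) within the 33.7% (Vsig4) to 57.2% (Folr2) of the 6 resident markers.

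Markers of other cells were measured in the same libraries. The 11 mesothelial and epicardial markers, among them epithelial keratins, summed to at most 0.882 CPM in any library, and Msln, Upk1b, Krt19, Lrrn4 and Muc16 were at 0 counts in all 12. B cell markers summed to 301 to 652 CPM in CD45.2 RZ and 131 to 283 in CD45.2 IZ, with none of 5 called between the zones. Endothelial markers ranged from 12.2 to 162 CPM in CD45.2 RZ and 24.5 to 213 in CD45.2 IZ, and fibroblast markers from 738 to 1150 and from 654 to 1810, with 0 of 11 and 0 of 10 called. Heart muscle markers were at 57.1 to 132 CPM in CD45.2 RZ and 46.7 to 110 in CD45.2 IZ, against 18.3 to 26.9 CPM in CD45.1, with 0 of 11 called between zones. Of 7 neutrophil markers tested, Mmp8, a collagenase of neutrophil granules, rose in CD45.2 IZ (log2 fold change 2.27, adjusted p = 0.00231 by edgeR), and of 3 lymphatic markers Pdpn, which encodes podoplanin (2.65, adjusted p = 0.00779), whose call was lost without S110 and with only the CD45.2 libraries. Both were higher in recruited macrophages, at 117 and 81.6 CPM in CD45.1 IZ against 25.1 and 23.5 CPM in CD45.2 IZ. The other 6 neutrophil markers tested were not called, with log2 fold changes from -0.04 (Csf3r) to 2.12 (Cxcr2). Neutrophil markers summed to 172 to 209 CPM in CD45.2 RZ and 138 to 311 in CD45.2 IZ. The other 2 lymphatic markers, Prox1 (-1.83) and Flt4 (0.93), went in opposite directions and were not called. Of all genes tested, 1.46% were called higher in CD45.2 IZ. Smooth muscle and pericyte markers summed to 7.06 to 22.1 CPM in CD45.2 RZ and 7.08 to 48.2 in CD45.2 IZ, a mean of 218% of the remote zone, and red cell markers to means of 38.8 CPM and 59.2 CPM, 153% of the remote zone, with 0 of 7 and 0 of 5 called. The zones overlapped for both sums. T and NK cell markers were at 15.9 to 25.8 CPM in CD45.2 RZ and 12.7 to 17.3 in CD45.2 IZ, with 0 of 4 called. Dendritic cell markers were at 32.3 to 43.6 and 17.1 to 29 CPM and markers of serous cavity macrophages at 13.7 to 43.4 and 18.4 to 28.9 CPM, with 0 of 8 called in each. The part of these cells in the zone differences of the 5 genes was not tested.

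Transcripts of Hgf, which encodes the ligand of MET, were present in these libraries and gave no call between zones. Which cells of the sorted samples held them was not tested. Hgf was at 15.2 ± 4.74 and 13.3 ± 2.37 CPM in CD45.1 RZ and IZ and at 9.93 ± 2.33 and 8.91 ± 2.31 CPM in CD45.2 RZ and IZ (SD, n = 3 each). Its adjusted p by edgeR was 0.837 between the CD45.2 zones and 0.107 between populations in the remote zone. Hgf shares exons with another gene and its counts are uncertain to that extent. Of 10 genes for HGF and the proteases and inhibitors that control its cleavage, 7 were tested. Of these, 1 rose in the resident infarct zone, where 1.46% of all genes were called higher. That gene was Spint1, which encodes the inhibitor HAI-1 of the HGF-activating proteases, at 5.08 ± 3.12 CPM in CD45.2 RZ and 24.2 ± 5.22 in CD45.2 IZ (log2 fold change 2.25, SE 0.444, adjusted p = 0.0285 by edgeR). Like Met it was higher in recruited macrophages (64 ± 20.8 and 80.3 ± 12.1 CPM in RZ and IZ), and its call between zones was lost without S107, S110, S111 or S115. Hpn, which encodes the activating protease hepsin, was higher in resident macrophages, at 9.08 ± 1.43 CPM in CD45.2 RZ against 2.21 ± 0.815 in CD45.1 RZ (adjusted p = 0.000239 by edgeR), and had a log2 fold change between the CD45.2 zones of -0.86 (adjusted p = 0.143).

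A list of 12 genes held receptors related to MET, surface proteins known to act with it and ligands of such receptors (Mst1 and Sema4d). Of these, 1 rose in the resident infarct zone and none fell, beside 1.46% and 0.293% of all genes. Itga6, which encodes integrin subunit alpha 6, went from 79.2 ± 12.1 to 137 ± 12.3 CPM (log2 fold change 0.79, SE 0.152, adjusted p = 0.0253 by edgeR). That call was lost without the libraries S104 to S107 together and without S107, S110, S111, S113 or S114. Itga6 was also higher in recruited macrophages, at 244 ± 44.4 and 229 ± 14 CPM in RZ and IZ. Itgb4, for the beta 4 subunit that alpha 6 can pair with, was near the floor, at 0.789 ± 0.188 and 0.691 ± 0.41 CPM in CD45.2 RZ and IZ. The closest relative of MET, the macrophage-stimulating protein receptor RON (Mst1r), was near the floor, at 2.07 ± 0.346 CPM in CD45.1 RZ and 0.553 ± 0.409 CPM in CD45.2 IZ, and was not called in any comparison. None of 28 adaptors and effectors of the receptor (such as Gab1, Grb2 and Stat3) and none of 13 attenuators (such as Cbl, Ptpn1 and Spry2) was called between the resident zones, with median log2 fold changes of 0.03 and 0.15. Between populations in the remote zone, resident macrophages had more of 2 and less of 8 of the 28 effectors, and more of 1 and less of 4 of the 13 attenuators, beside the 16.2% and 15.8% of all genes.

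Among the relatives and partners of FLRT3, 11 of 18 were tested. Between the resident zones 3 were called, 2 higher and 1 lower, where 1.46% of all genes were called higher and 0.293% lower. The lists were made with earlier results of these data known, so these counts are a description. Flrt2, a second FLRT gene, rose from 0.586 ± 0.206 to 3.44 ± 0.719 CPM (log2 fold change 2.55, SE 0.299, adjusted p = 0.00228 by edgeR), and was at 5.44 ± 0.931 and 9.5 ± 1.62 CPM in CD45.1 RZ and IZ. Tenm4, a teneurin (a partner of latrophilins), rose from 0.0458 ± 0.0331 CPM, a few counts a library, to 1.16 ± 0.66 CPM (4.62, SE 0.589, adjusted p = 0.0025 by edgeR). Adgrl1, which encodes latrophilin 1, fell from 3.37 ± 0.848 to 1.35 ± 0.235 CPM (-1.32, SE 0.289, adjusted p = 0.0448 by edgeR) and was lower still in CD45.1, at 0.543 ± 0.036 and 0.303 ± 0.0684 CPM. Tenm4 and Adgrl1 share exons with other genes. The Adgrl1 call was lost when S104 to S107 were left out and when any library but S106 was, and the Tenm4 call with limma-voom. These 3 calls, and those of Spint1 and Itga6, were lost when only the 6 CD45.2 libraries were fitted, a fit that called 26 genes in place of 330. Each of the 3 genes thus had its resident infarct zone mean between its resident remote zone mean and its recruited infarct zone mean.

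The nearest relative of Rhov and the kinases it binds gave no call between zones. Rhou, the GTPase nearest to RHOV, had a mean of 1.51 ± 0.861 CPM in CD45.2 RZ and 5.72 ± 3.53 CPM in CD45.2 IZ, a zone difference that missed the test (log2 fold change 1.92, SE 0.524, adjusted p = 0.0968 by edgeR), and was at 24.4 ± 10.5 and 24.3 ± 10.9 CPM in CD45.1. None of 3 PAK genes tested was called between zones.

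The other Plekhg genes did not follow Plekhg5. None of the 5 tested was called between zones, and Plekhg1, Plekhg2 and Plekhg3 had log2 fold changes between populations in the remote zone of 0.21, -0.21 and 0.25, none of them called, where that of Plekhg5 was 4.46. Plekhg6, at 1.49 ± 0.269 CPM in CD45.2 RZ and 0.56 ± 0.165 in CD45.1 RZ, was called there (1.41, adjusted p = 0.00888 by edgeR). Gprc5b was a resident gene like Gprc5c at a far lower level, 2.2 ± 0.106 CPM in CD45.2 RZ against 0.13 ± 0.0473 in CD45.1 RZ (4.05, adjusted p = 5.35e-05 by edgeR), with a log2 fold change of -0.63 between the resident zones (adjusted p = 0.45). Gprc5b shares exons with another gene. Gprc5a, the other relative tested, went the other way, at 0.146 ± 0.129 CPM in CD45.2 RZ against 0.89 ± 0.469 in CD45.1 RZ (-2.58, adjusted p = 0.0301 by edgeR). Its mean was below 1 CPM in all 4 groups. None of 12 genes of the retinoic acid pathway (receptors, synthesis and breakdown enzymes and binding proteins) was called between zones. The remote zone populations differed in 4 of them, of which resident macrophages had more of 3 and less of 1. That is near the share of all genes, of which 16.2% were called higher and 15.8% lower there. No gene of any list named here was called between the recruited zones or in the difference of the zone effects.

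**Figure D4:**
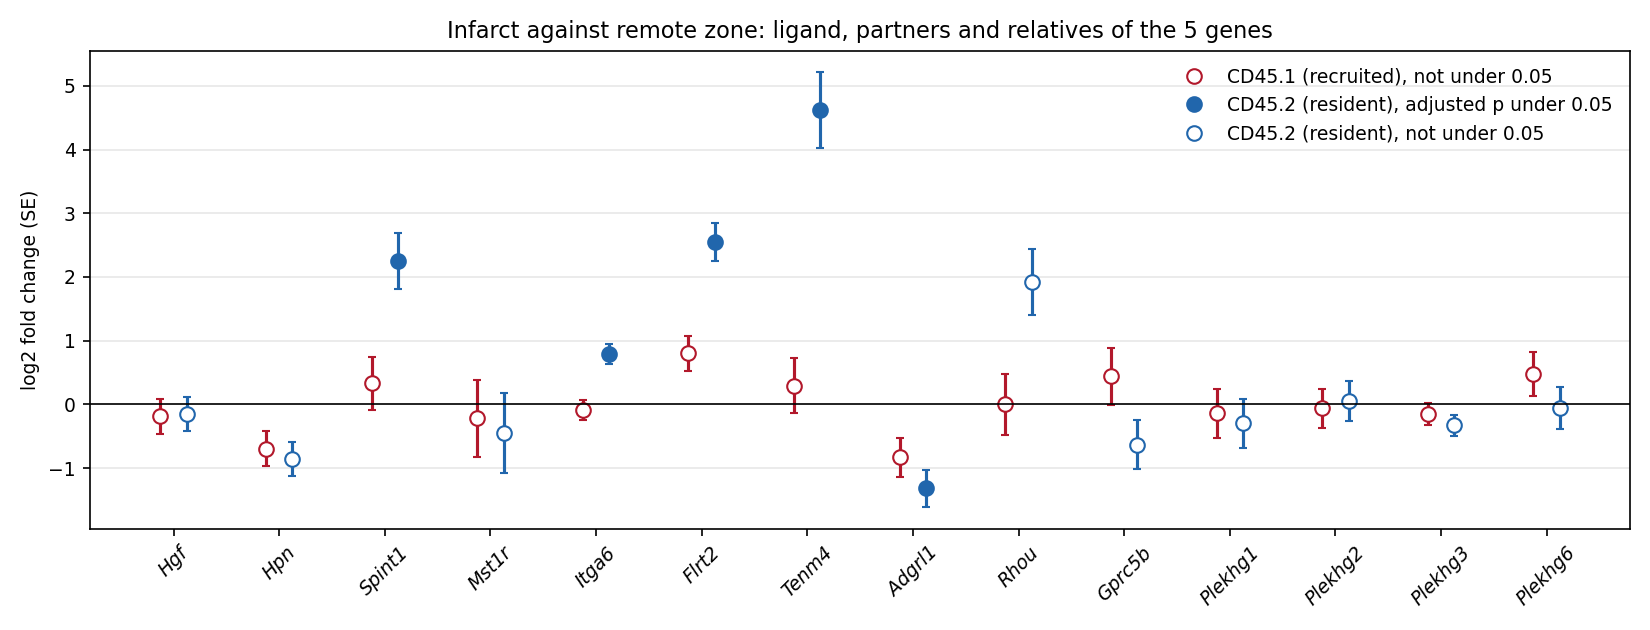
Log2 fold change between the infarct and remote zones (± SE) for the ligand, partners and relatives of the 5 genes in CD45.1 (red) and CD45.2 (blue), with filled points at an adjusted p under 0.05. Filled points are Spint1, Itga6, Flrt2 and Tenm4, which rose, and Adgrl1, which fell, all in CD45.2.

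Across the 12 libraries, the genes nearest in pattern to each of the 5 were found by the Pearson correlation of log2 CPM, which is a description over libraries that share populations, zones and depth. For Met they were Tatdn2 (r = 0.986), Gm42987 (0.985) and Dmkn (0.983). For Flrt3 they were Spint1 (0.992), Trem3 (0.991) and Apol7d (0.991). For Rhov they were Ocstamp (0.986), Met (0.98) and Cd244a (0.978). Gprc5c and Plekhg5 were each other's nearest gene (0.995), followed by Arhgef3 (0.995) and Sult1a1 (0.995) for Gprc5c, and by Rab6b (0.995) and Arhgef3 (0.993) for Plekhg5. By rank correlation, 1 of the 3 genes was the same for Met, Flrt3 and Plekhg5 and 0 for Rhov and Gprc5c. Once the 4 group means were taken out, the correlation over the 12 libraries was 0.884 for Met and Rhov, 0.711 for Flrt3 and Rhov, 0.487 for Met and Flrt3 and 0.808 for Gprc5c and Plekhg5.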

How the data were processed

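RNA of about 1000 sorted cardiac macrophages per library was amplified with SMART-Seq v4, a full-length method without molecular identifiers or strand. According to the study's methods and the submitters' processing notes, reads were trimmed with bbduk, aligned with HISAT2 2.2.1 to GRCm38.p6 and counted with featureCounts (Subread 2.0.1), which also assigned reads that overlap several genes. The authors deposited raw counts per gene. A read in exons shared by several genes was thus counted for each, which touches 11722 of 55487 genes, and antisense pairs cannot be told apart. Symbols were matched for 55141 genes.

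The 12 libraries were grouped by their labels. Counts were fitted with edgeR 4.0.16 (R 4.3.3) in 1 model with a mean per group: filterByExpr (minimum count 10, total 15), TMM scaling, the quasi-likelihood test and Benjamini-Hochberg adjustment over 18773 genes at 0.05. CPM are TMM-scaled, and correlations used log2 CPM with a prior count of 2. Alternatives were DESeq2 1.42.0, limma-voom (limma 3.58.1), other scalings and filters, other sets of libraries, covariates for the side of the second component and for sex (from Xist and Ddx3y), and leaving out each library or the genes that share exons. Members, gene lists and motifs were chosen with earlier results of these data known. By a fixed rule, the text names the 5 genes, the called genes with the smallest p in each family or pathway list between the resident zones, the ligand and nearest relatives, and the 3 best-correlated genes. Hpn, Mmp8, Pdpn, Gprc5a and Itgb4 were added after their values were seen. Beside these, 1 gene family list and 1 marker gene are not reported here.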

Additional observations from a re-analysis of the deposited data

How the results depend on the processing

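The main fit was not paired, because the library numbers differ between all 4 groups and no label names an animal. The fit with the second component and sex as covariates has a term for each of the sets S104 to S107, S108 to S111 and S112 to S115, with 1 library of every group in each, and so compares libraries within these sets. The direction of all 5 genes held under every alternative in the zone contrasts within each population and in both population contrasts, and that of Gprc5c in the difference of zone effects, -0.11, ran from -0.5 to 0.11.

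The number of genes called moved more. Between the resident zones, 330 genes were called, against 1154 by DESeq2, 674 by limma-voom, 26 with only the CD45.2 libraries, 213 without genes that share exons (of fewer genes tested), 1121 with the side of the second component as a covariate and 1457 with sex added, and 124 to 1099 with 1 library left out (lowest without S110, highest without S106). Between the recruited zones, 0 became 190 by DESeq2, 14 with no filter, 5 without S104 to S107, 12 and 59 with the covariates, 1 without shared exons and 0 to 2 with 1 library left out. In the difference of zone effects, 0 became 163 by DESeq2, 25 by limma-voom, 30 with no filter, 4 at 1 CPM or more in 3 libraries, 35 without S104 to S107, 48 and 94 with the covariates and 0 to 60 with 1 library left out (highest without S106). Between populations in the remote zone, 6012 became 3506 without shared exons, and 4062 to 7228 with 1 library left out. In the infarct zone, 3666 became 6675 by limma-voom, 5741 with both covariates, 2133 without shared exons and 2173 to 4356 with 1 library left out (lowest without S115, highest without S106).

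With 3 libraries a group, the 12 to 84 counts of Rhov and 26 to 118 of Met in the resident remote zone limit how closely their fold changes are known.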
